A study of Mus musculus with 21 samples.

Results

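Mouse embryonic stem cells kept for 4 h in CX-5461 were compared with cells kept for 2 h in the same drug, to show how the response moved on between these times. The 3 libraries of each time were chosen by their titles, which makes 6 of the 21 libraries of the series. The cells were E14, a line of the 129 strain, grown in serum with leukaemia inhibitory factor (LIF). They were plated on the day before, and the drug was added with fresh medium at a dose of 1 µM. Other groups are used beside them for reference. Untreated cells (0 h, 3 libraries) give the starting level, and cells in 1 µM BMH-21, another inhibitor of RNA polymerase I, for 2 h or 4 h (3 libraries each) give the same step under a second drug. The 8 h libraries of CX-5461 are quoted where a later level helps. No time-matched cells in medium without drug were analysed here, so time in drug and time since the change of medium cannot be told apart. The labels do not say whether replicates were separate cultures. The p-values therefore measure only the spread between these libraries, which may be technical.

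RNA polymerase I transcribes the ribosomal DNA repeats in the nucleolus, the step that starts ribosome assembly. CX-5461 blocks initiation by this polymerase and has also been reported to stabilise G-quadruplex DNA and to act on topoisomerase II. When ribosome assembly stalls, free ribosomal proteins can bind MDM2, the ligase that marks p53 for destruction, and p53 then accumulates and switches on its target genes. In embryonic stem cells p53 also meets the transcription factors that hold the pluripotent state, and nucleolar stress is known to release Dux, a factor of the early cleavage embryo.

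The deposited log2 values could be turned back into whole reads, and the 6 libraries held 47237779 to 57534390 reads. At this depth a count of 3 reads stood at a deposited log2 value between -4.24 and -3.59. Each library was centred on its median gene, so every level below is a log2 value relative to the median gene of its own library, and every change is a difference of such levels. The level of one gene is not compared with that of another, since the values are not scaled by length. Of 20900 genes in the table, 14666 had a deposited log2 value above 0 in at least 3 of the 21 libraries and were tested. The defining markers of embryonic stem cells were present at both times, with Pou5f1 at a mean level of 6.18 at 2 h and 5.97 at 4 h. The 10 markers of that list summed to 6061 to 6107 rpm (reads scaled to a library of equal size) in untreated cells, 4951 to 5035 at 2 h and 4264 to 4379 at 4 h. The feeder fibroblast markers summed to 52.6 to 55.4 rpm at 2 h and 56.2 to 61.8 at 4 h. Of these 10 markers only Lum was at 3 reads or fewer in all 6 libraries, while Col1a1 had 485 to 1200 reads and Acta2 782 to 1260. Col1a1 and Pdgfrb each rose by 0.70, Thy1 and Acta2 fell by 0.45 and 0.35, and Col1a2 did not pass the test. The sum for primitive endoderm was similar at both times (138 to 159 and 145 to 158). Its markers Pdgfra, Gata6 and Col4a1 rose by 1.39, 0.83 and 0.34, while Sox7, Lama1 and Dab2 fell by 1.11, 0.49 and 0.30. Gata4 and Sox17 did not pass the test. The sum for neural progenitors was lower at 4 h (240 to 252 and 200 to 206). The trophoblast sum was slightly higher at 4 h (68.8 to 72.3 and 72.9 to 75.2). Its markers Krt7, Ascl2 and Hand1 rose by 2.02, 0.48 and 0.39, while Tfap2c, Eomes and Cdx2 fell by 0.39, 0.63 and 0.83. The sum for primitive streak and mesoderm went from 13.2 to 13.9 up to 26.1 to 29.3. Wnt3, a secreted signal of the streak, rose by 1.77 and Mesp1 by 1.73, while Eomes and Kdr fell by 0.63 and 0.60, T, Mixl1 and Tbx6 did not pass the test, and Msgn1 was at 3 reads or fewer. In bulk RNA fewer cells of a type and less RNA per cell cannot be told apart.

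Between 2 and 4 h the expression of most genes moved, and the large movements were mostly upward. The words rose and fell are used here for genes with a Benjamini-Hochberg adjusted p under 0.05 in limma over all 14666 genes. By that test 9819 genes changed (67.0%), of which 3919 rose (26.7%) and 5900 fell (40.2%). These shares are the background for every count of rises and falls in a gene list below. Most falls were small. The median gene moved by -0.08, the median size of a change was 0.27, and the middle 80% of genes lay between -0.49 and 0.86. Among changes of at least 2-fold the direction turned over, with 1258 genes higher at 4 h (8.58%) and 191 lower (1.30%). The largest single difference among the tested genes was a rise of 5.40, against a largest fall of 2.52. The 3 values at 4 h lay wholly above the 3 at 2 h for 4162 genes (28.4%) and wholly below them for 6372 (43.4%). On the deposited values without centring, limma called 6970 genes (47.5%), 3035 higher (20.7%) and 3935 lower (26.8%). The share of rises among 2-fold changes was 86.8% of 1449 genes after centring, 85.8% on the deposited values, 89.2% with median-ratio scaling and 67.6% with quantile normalization (967 higher and 464 lower).

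The size and sign of a change went with how strongly the gene was expressed. Of 982 genes with a mean deposited log2 value under 0, 37.6% rose by at least 2-fold and the median change was 0.54. Such genes passed the filter only through the few libraries where they were high, so the share of large changes among them is in part set by the filter. That share fell to 15.6% for mean values from 0 to 2, to 9.55% from 2 to 4, to 3.63% from 4 to 6 and to 1.21% from 6 to 8. It was 0 among the 682 genes above 8, whose median change was -0.18. The genes that rose by at least 2-fold had a median level of -4.71 in untreated cells, -4.02 at 2 h and -2.23 at 4 h. Those that fell by at least 2-fold stood at -1.96, -2.30 and -3.58. The number of genes with no read at all went from 1767 to 1899 per library at 2 h down to 1371 to 1496 at 4 h. Longer genes were also more often among the large rises. The share that rose by at least 2-fold was 5.45% for genes spanning under 3 kb and 16.9% for those over 300 kb. The median span was 34.8 kb for these risers and 34.1 kb for the genes that fell by at least 2-fold, against 23.1 kb for all tested genes. The share that fell by at least 2-fold was 1.07% under 3 kb, 2.92% from 100 to 300 kb and 0.92% over 300 kb. Among genes with a mean deposited log2 value over 4, the share of 2-fold rises was 0.613% under 3 kb, 5.88% from 100 to 300 kb and 2.44% of the 82 genes over 300 kb. Genes on the X chromosome rose by at least 2-fold less often (3.23% of 496) than autosomal genes (8.88%). These shares are descriptions, with no test.

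**Figure D1:**
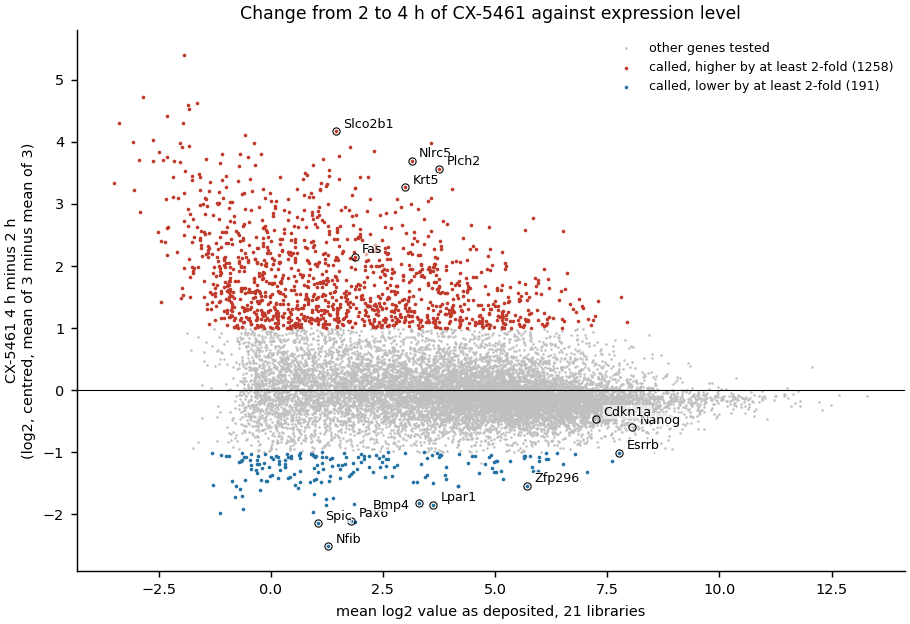
Change from 2 h to 4 h of CX-5461 (log2, vertical axis) against mean deposited log2 value over all 21 libraries (horizontal axis), 1 point per tested gene, coloured by whether it was called and changed by at least 2-fold. The 1258 genes higher by at least 2-fold sit mostly at low and middle levels, and none of the 682 genes above a mean of 8 is among them.

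The largest rises, among genes with a mean deposited log2 value of at least 0 over the 6 libraries, began from few reads at 2 h. Slco2b1, a membrane carrier of organic anions (GRCm38 chr7:99657804-99711340, minus strand), had levels of -5.79, -5.15 and -5.32 at 2 h, from 16, 30 and 27 reads, and of -1.13, -1.32 and -1.30 at 4 h, from 543, 407 and 424 reads. All 3 values at 4 h were far above those at 2 h. The rise was 4.17 ± 0.19 (log2, SE of the limma fit, 3 against 3, adjusted p = 7.12e-15), and untreated cells stood at -6.17. Otog, which encodes a protein of the gelatinous membranes of the inner ear, went from -5.22, -4.81 and -4.84 to -0.90, -1.10 and -1.13, a rise of 3.91 ± 0.13. Foxn1, the transcription factor of thymic epithelium, went from -5.41, -5.10 and -5.08 to -1.52, -1.79 and -1.41, a rise of 3.63 ± 0.20. Plch2, a phospholipase C, had more reads at the start (212 to 237 at 2 h) and went from -2.07, -2.35 and -2.21 to 1.42, 1.26 and 1.37, a rise of 3.56 ± 0.09. The other large rises chosen by the same rule were 5330417C22Rik (3.85), Arhgef33 (3.77), Ccdc81 (3.72), Nlrc5 (3.70), Angptl2 (3.54), Matn4 (3.50) and Wnt8b (3.47). All of these had values at 4 h above every value at 2 h, which the rule required. The untreated mean of Otog (-5.27) was near its 2 h levels, while those of Foxn1 (-6.83) and Wnt8b (-6.76) were lower. At 8 h Slco2b1 stood at -1.49, Otog at -1.27 and Foxn1 at -3.33.

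The largest falls by the same rule included transcription factors and a secreted growth factor. Nfib, a transcription factor of the nuclear factor I family, had levels of -1.74, -1.59 and -1.78 at 2 h and -4.17, -4.03 and -4.46 at 4 h, from 273, 359 and 321 reads to 66, 62 and 47. The groups did not overlap, and the change was -2.52 ± 0.16 (adjusted p = 1.96e-12). Spic, an ETS factor active in naive pluripotent cells, went from -2.54, -2.49 and -2.44 to -4.75, -4.69 and -4.49, a change of -2.15 ± 0.20. Pax6, the master regulator of eye and neural fates, went from -1.65, -1.72 and -1.67 to -3.84, -3.56 and -3.97, a change of -2.11 ± 0.17. Bmp4, a secreted growth factor that works with LIF to hold the pluripotent state, went from -0.02, -0.09 and -0.13 to -1.94, -1.79 and -1.98, a change of -1.82 ± 0.10. The rule also gave Msc (-2.13), Mdfic (-1.97), Lpar1 (-1.85), Rgma (-1.85), Serpinb9b (-1.84), Rasgrp1 (-1.76) and Nt5e (-1.68). At 8 h Nfib stood at -3.15, Pax6 at -1.86 and Bmp4 at -0.29, above their 4 h levels of -4.22, -3.79 and -1.90.

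**Figure D2:**
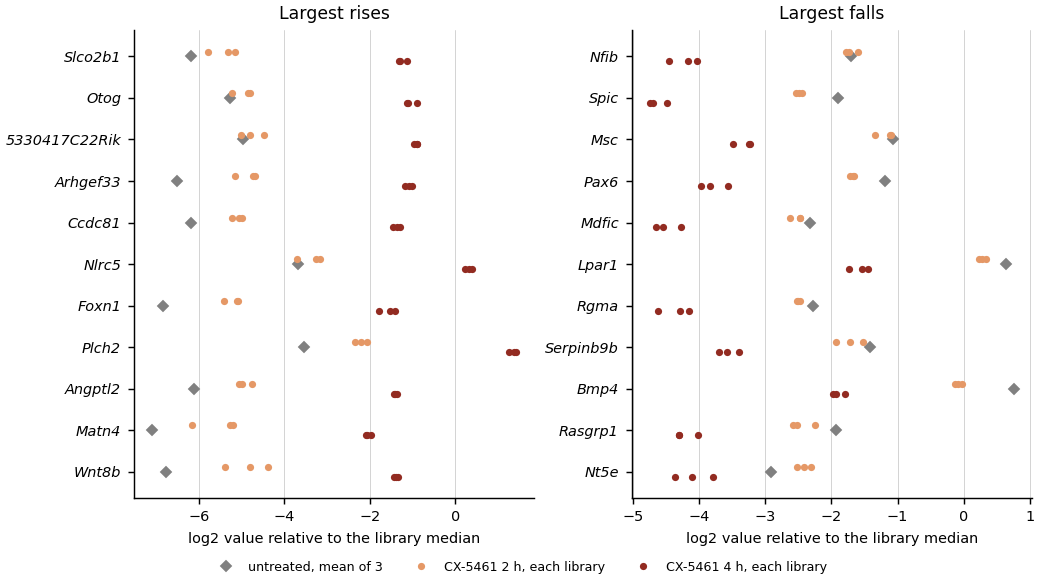
Log2 level relative to each library's median gene for the largest rises and the largest falls described here, with 1 point per library, the 2 h and 4 h libraries in separate colours, and the mean of the 3 untreated libraries as a grey diamond. The points of the 2 times are apart for every gene shown, with Slco2b1 at the head of the rises and Nfib at the head of the falls.

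The promoters of 5 members are shown as examples of the large rises, the large falls and the p53 targets. Each is the 250 bases before the RefSeq transcription start, 5′ to 3′ on the strand of the gene, in GRCm38.p6. Capitals mark matches to any of 5 short motifs, searched on both strands. These were the AP-1 site TGANTCA, the TATA box TATAAA, the E-box CACGTG, the octamer ATTTGCAT and the p53 decamer. The genes were picked after the matches had been seen, so that some hold a match and some do not, and genes with larger changes and no match were left out. They were taken among those whose RefSeq start lies at the 5′ end of the GENCODE gene model.
Slco2b1: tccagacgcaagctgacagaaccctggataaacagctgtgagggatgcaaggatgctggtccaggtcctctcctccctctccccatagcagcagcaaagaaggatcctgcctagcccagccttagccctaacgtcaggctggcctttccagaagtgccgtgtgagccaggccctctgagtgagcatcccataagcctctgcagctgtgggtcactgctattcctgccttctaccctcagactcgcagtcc
Foxn1: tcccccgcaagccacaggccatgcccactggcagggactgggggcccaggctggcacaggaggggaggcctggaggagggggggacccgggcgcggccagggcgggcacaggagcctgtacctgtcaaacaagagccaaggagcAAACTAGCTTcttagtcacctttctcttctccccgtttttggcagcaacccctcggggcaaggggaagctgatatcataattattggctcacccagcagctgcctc
Fas: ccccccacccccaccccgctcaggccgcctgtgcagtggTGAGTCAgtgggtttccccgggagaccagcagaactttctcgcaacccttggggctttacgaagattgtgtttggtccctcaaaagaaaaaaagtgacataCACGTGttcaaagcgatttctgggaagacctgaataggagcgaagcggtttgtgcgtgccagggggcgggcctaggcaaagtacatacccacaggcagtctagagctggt
Bmp4: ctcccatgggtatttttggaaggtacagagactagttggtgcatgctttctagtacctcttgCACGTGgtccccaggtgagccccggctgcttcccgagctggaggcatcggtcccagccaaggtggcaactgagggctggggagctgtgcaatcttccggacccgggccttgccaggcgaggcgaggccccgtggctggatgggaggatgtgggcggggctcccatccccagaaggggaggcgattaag
Pax6: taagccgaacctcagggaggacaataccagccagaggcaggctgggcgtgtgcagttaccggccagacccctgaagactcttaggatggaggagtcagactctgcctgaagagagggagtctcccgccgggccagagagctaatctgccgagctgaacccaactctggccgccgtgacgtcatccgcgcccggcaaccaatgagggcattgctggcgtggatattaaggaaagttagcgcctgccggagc
Slco2b1 (chr7:99711341-99711590, minus strand) and Pax6 (chr2:105668646-105668895, plus strand) held no match. Foxn1 (chr11:78386609-78386858, minus strand) held 1 p53 decamer that begins 106 bases before the start. Fas (chr19:34290409-34290658, plus strand) held an AP-1 site that begins 211 bases before the start and an E-box at 110 bases. Bmp4 (chr14:46390670-46390919, minus strand) held an E-box at 188 bases. Over 32851 promoters of the same length, 6.75% held an AP-1 site, 6.02% an E-box, 12.4% a TATA box, 1.60% an octamer and 7.13% a p53 decamer. A match describes letters in this window and shows no binding.

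The targets of p53 did not move as one group in this step: apoptosis genes rose while Cdkn1a and several stress genes fell. Relative to untreated cells the median level at 2 h was higher by 1.35 for the apoptosis targets, by 0.96 for the feedback and cell cycle targets and by 1.31 for the metabolic and repair targets. Of 14 apoptosis targets, 10 rose and 0 fell, with a median change of 0.27, beside the background of 26.7% of all genes that rose and a median of -0.08 over all genes. Of 12 feedback and cell cycle targets, 6 rose and 2 fell (median 0.11), and of 17 metabolic and repair targets 11 rose and 3 fell (median 0.25). On the deposited values these counts were 7 and 0, 4 and 2, and 8 and 2. Fas, the death receptor at the cell surface, had levels of -3.41, -3.47 and -3.29 at 2 h and -1.08, -1.36 and -1.30 at 4 h, with untreated cells at -6.61. All 4 h values lay above the 2 h values, and the rise was 2.15 ± 0.19 (adjusted p = 7.76e-10). Apaf1, the scaffold of the apoptosome that activates caspases, went from 1.61, 1.58 and 1.55 to 3.42, 3.49 and 3.49, a rise of 1.88 ± 0.05. Perp, a membrane protein of the apoptotic programme, rose by 1.17 and Pmaip1, the BH3-only protein NOXA, by 0.63. Bbc3, the BH3-only protein PUMA, stood at -0.35 in untreated cells and at 1.88, 1.77 and 1.62 at 2 h, against 1.66, 1.63 and 1.61 at 4 h, which overlap (adjusted p = 0.12). Bax gave -0.08 (adjusted p = 0.27).

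Among the feedback and cell cycle targets Cdkn1a and Plk2 fell, while Mdm2, Zmat3 and Psrc1 were among the 6 that rose. Cdkn1a, which encodes the cyclin kinase inhibitor p21 (chr17:29090976-29100727, plus strand), stood at 0.78 in untreated cells, at 3.40, 3.37 and 3.40 at 2 h and at 3.00, 2.85 and 2.91 at 4 h. The 4 h values were all below the 2 h values and all above the untreated mean, and the change of this step was -0.47 ± 0.04 (adjusted p = 9.29e-10). Plk2, a polo-like kinase induced by p53, went from 0.44 in untreated cells to 3.81 in each library at 2 h and to 3.47, 3.38 and 3.37 at 4 h, a change of -0.40 ± 0.04. Mdm2 (2.63 untreated) stood at 5.04, 4.99 and 5.01 at 2 h and at 5.23, 5.22 and 5.18 at 4 h. Its rise of 0.20 ± 0.03 passed after centring (adjusted p = 2.36e-05) and not on the deposited values (0.19, adjusted p = 0.13). Zmat3, an RNA-binding tumour suppressor, rose by 0.67 and Psrc1, a spindle protein, by 0.43. Among the metabolic targets Ptprv, a receptor phosphatase, rose by 1.80, while Sesn2, a stress sensor that restrains mTORC1, fell by 0.48 and Tigar, a fructose bisphosphatase that slows glycolysis, fell by 0.61. Tigar stood at 1.80 in untreated cells, so its 4 h mean of 1.08 lay below the start. Over the 43 p53 targets the Spearman correlation between gene span and change was 0.25, against 0.08 over all tested genes with a span. Under BMH-21 it was 0.04 over the same targets and 0.07 over all genes. These are descriptions across genes, which are not independent.

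Genes of antigen presentation split in the same step. Nlrc5, the transactivator of MHC class I genes (chr8:94434356-94527272, plus strand), stood at -3.68 in untreated cells and at -3.71, -3.27 and -3.17 at 2 h, then at 0.32, 0.24 and 0.38 at 4 h. The 4 h values were far above those at 2 h, and the rise was 3.70 ± 0.12 (adjusted p = 9.53e-18). The peptide transporter genes Tap1, also a p53 target, and Tap2 rose by 1.69 and 0.87, and Psmb9, an immunoproteasome subunit, rose by 0.64. The heavy chains H2-K1 and H2-D1 fell by 0.26 and 0.23 (H2-D1 with an adjusted p of 0.085 on the deposited values), the chaperone gene Tapbp fell by 0.45, and B2m, the shared light chain, gave -0.02 (adjusted p = 0.78). In all 5 of the 11 genes rose and 5 fell. The list median of -0.02 became 0.03 with median-ratio scaling.

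The network that holds the naive pluripotent state went down, with 3 exceptions. Of its 26 genes, 22 fell, against a background of 40.2%, and 3 rose, and the median change was -0.52. On the deposited values 21 fell and 2 rose. Prdm14, a repressor of differentiation genes (chr1:13113457-13127163, minus strand), had levels of -0.696, -0.394 and -0.449 at 2 h and -1.990, -1.987 and -2.001 at 4 h, a change of -1.48 ± 0.10 with no overlap. Nr5a2, a nuclear receptor, went from 1.37, 1.38 and 1.36 to 0.05, 0.02 and 0.06, a change of -1.33 ± 0.06. Esrrb, the estrogen-related receptor that works beside Nanog, went from 4.00, 4.02 and 3.98 to 3.00, 2.97 and 3.00, a change of -1.01 ± 0.04. Nanog went from 4.09, 4.06 and 4.08 to 3.51, 3.51 and 3.42, a change of -0.60 ± 0.05. Nr0b1, Zfp42 and Lin28a fell by 1.15, 0.93 and 0.92, and Pou5f1, which encodes OCT4, by 0.21. The 3 risers were Klf5 (0.61), Klf2 (0.27) and Sox2 (0.11), of which Sox2 did not pass on the deposited values (adjusted p = 0.45). Sox2 stood at 4.89 in untreated cells and at 4.14 at 2 h, and its 4 h mean of 4.25 remained below the untreated level. At 8 h Esrrb, Prdm14 and Nanog stood at 3.28, -0.04 and 4.08.

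Factors that prepare the exit towards formative and neural fates went both ways. Of 20 tested, 10 fell and 3 rose, beside 40.2% and 26.7% of all genes, with a median change of -0.34. Besides Pax6, the largest falls were those of the SOX factors Sox11 (-1.19) and Sox3 (-1.16) and of the Notch-related repressor Hes3 (-1.12). Zic2, a zinc finger factor of the primed state, fell by 0.65. Insm1, a zinc finger factor of neuroendocrine and neural precursors, went from -3.537, -3.614 and -3.398 up to -2.252, -1.998 and -2.134, a rise of 1.39 ± 0.12 to just above the untreated mean of -2.40. Pou3f1, also called OCT6, rose by 0.53 and Hes6 by 0.52. Otx2 stood at 1.71 in untreated cells and at 0.56, 0.56 and 0.57 at 2 h, and its values of 0.55, 0.72 and 0.47 at 4 h overlapped these (0.02, adjusted p = 0.78).

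**Figure D3:**
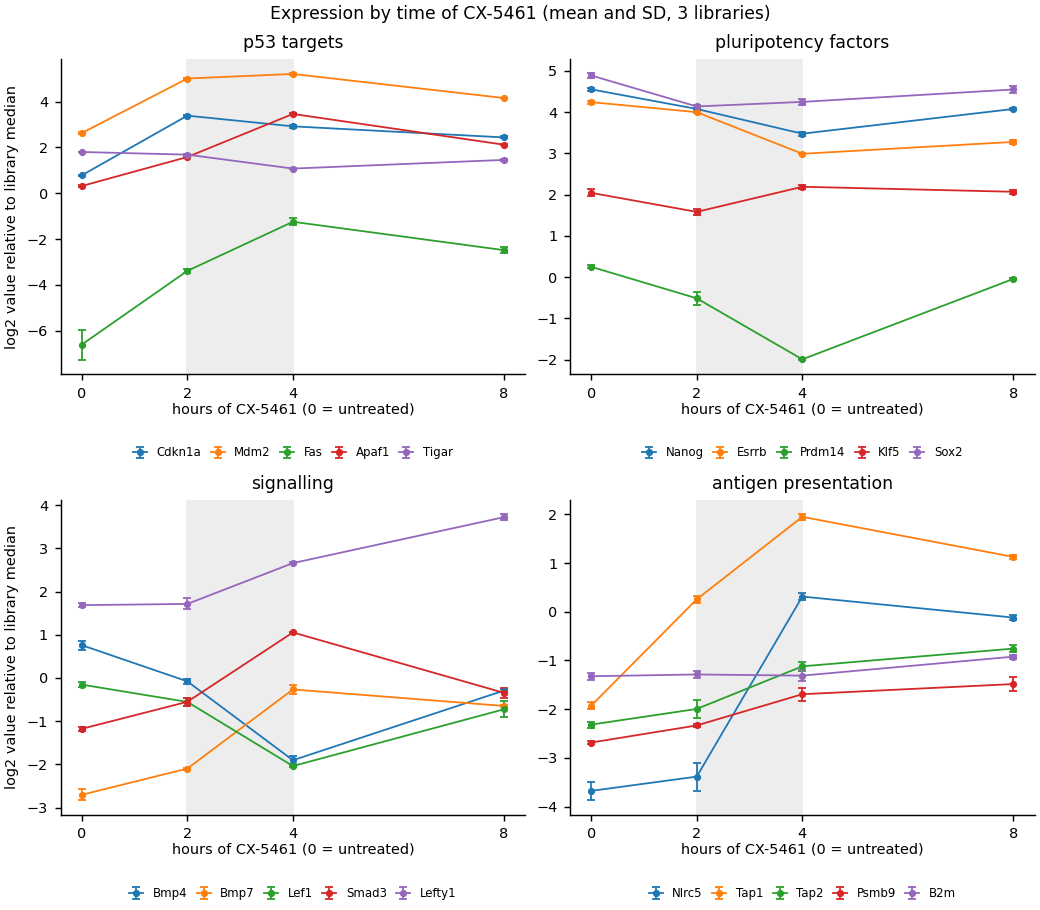
Mean log2 level relative to the median gene (vertical axis) at 0, 2, 4 and 8 h of CX-5461 (horizontal axis), with the SD of 3 libraries as bars and the interval from 2 to 4 h shaded, for p53 targets, pluripotency factors, signalling genes and antigen presentation genes. Apaf1 and Fas climb through the shaded interval while Cdkn1a turns down, and Nlrc5 rises there from about its untreated level. Esrrb, Prdm14 and Nanog fall there. At 8 h Prdm14 and Nanog are near or above their 2 h levels, while Esrrb remains below its own.

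Signalling genes changed at several levels of each pathway. Of 9 BMP genes, 6 fell and 2 rose (median -0.33). The ligand genes went opposite ways, with Bmp4 down by 1.82 and Bmp7 (chr2:172868012-172940321, minus strand) up from -2.07, -2.10 and -2.12 to -0.19, -0.37 and -0.23, a rise of 1.83 ± 0.07. Id1, Id2 and Id3, which encode the inhibitory helix-loop-helix proteins that BMP signalling induces, fell by 0.35, 0.23 and 0.33, though Id2 did not pass on the deposited values (adjusted p = 0.06). Of the inhibitory SMADs, Smad7 rose by 0.36 and Smad6 fell by 0.49. In the Nodal pathway 4 of 10 genes rose and 3 fell. The signal transducer Smad3 went from -0.45, -0.63 and -0.58 to 1.04, 1.05 and 1.07, a rise of 1.60 ± 0.07, while its relative Smad2 fell by 0.41 and the partner factor Foxh1 by 0.46. Lefty1, a secreted Nodal inhibitor, rose by 0.94 ± 0.09, from 1.63, 1.65 and 1.86 to 2.69, 2.66 and 2.63, and the ligand gene Nodal gave 0.04 (adjusted p = 0.40).

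Of 10 genes downstream of WNT 2 rose and 5 fell (median -0.17), not far from the 26.7% and 40.2% of all genes. Lef1, the nuclear partner of beta-catenin, went from -0.66, -0.47 and -0.54 to -2.02, -2.07 and -2.03, a change of -1.48 ± 0.11, and the feedback genes Notum and Axin2 fell by 0.78 and 0.69. Nkd1 and Rnf43, which also restrain the pathway, rose by 1.29 and 1.27, the latter from 29 to 35 reads at 2 h to 76 to 81 at 4 h. Of 11 LIF and STAT3 genes 7 fell and 3 rose (median -0.20). Il6st, which encodes the gp130 chain of the LIF receptor, fell by 0.87 and the feedback gene Socs2 by 1.07, while the kinase gene Pim1 rose by 0.58. Of 17 outputs of FGF and ERK signalling 6 rose and 8 fell, beside 26.7% and 40.2% of all genes. The list median of -0.02 took the opposite sign with median-ratio scaling (0.04) and with quantile normalization (0.02). The ETS factor Etv1 fell by 1.49 and Ccnd1, which encodes cyclin D1, by 0.92, while Phlda1 rose by 1.13 and the ERK phosphatase Dusp6 by 0.63.

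Some immediate early genes rose in this step, while others fell or did not pass the test. Of 22 AP-1 and immediate early genes 11 rose and 5 fell (median 0.13). Atf3, a stress-induced repressor, went from -2.33, -2.66 and -2.28 to -0.63, -0.86 and -0.72, a rise of 1.68 ± 0.10, and the AP-1 genes Fosl1 and Jun rose by 1.38 and 1.17. Fos and Egr1, which respond within minutes to a stimulus, gave -0.03 and -0.00 (adjusted p = 0.66 and 0.99). Fos stood at -2.51 in untreated cells against -0.43 at 2 h. The orphan receptor gene Nr4a1 fell by 0.50 and Ier2 by 0.35. In the MYC network Myc fell by 0.23, which did not pass on the deposited values (adjusted p = 0.054), and Mycn rose by 0.31. The MYC antagonist genes went both ways, with Mxd4 up by 0.87 and Mnt down by 0.53.

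Keratin genes went both ways. Krt5, the keratin of basal epidermis (chr15:101707070-101712898, minus strand), stood at -6.32 in untreated cells, went from -3.28, -3.70 and -3.57 at 2 h to -0.14, -0.48 and -0.14 at 4 h, and so rose by 3.27 ± 0.17. Klhl30, Krt15 and Krt7 rose by 2.91, 2.53 and 2.02. Krt8 and Krt18, the pair of simple epithelia, fell by 0.32 and 0.43. Of the 12 genes tested in the list, 7 rose and 4 fell (median 0.36). In the retinoic acid list of 12 genes 3 rose and 6 fell (median -0.12), beside 26.7% and 40.2% of all genes. The retinol uptake receptor gene Stra6 rose by 1.80 and the receptor gene Rarg fell by 0.62. Of 38 HOX genes 2 reached the filter, and Hoxc13 rose by 1.42.

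The embryonic factor Dux rose in this interval, while most of the other genes of the cleavage embryo list did not pass the test. Dux had 19, 20 and 13 reads at 2 h and 117, 74 and 105 at 4 h, at levels of -5.55, -5.72 and -6.35 and then -3.34, -3.78 and -3.30. The rise was 2.40 ± 0.32 (adjusted p = 5.17e-07). It is a multicopy gene, so the division of its reads among copies is uncertain. Of 19 genes of the cleavage embryo, Dux among them, 4 rose and 0 fell, a share of rises below the 26.7% of all genes, with a median of 0.18 that turned to -0.18 with quantile normalization. Sp110 rose by 0.79, Usp17le by 0.63 and Tcstv1 by 0.46, the last with an adjusted p of 0.061 on the deposited values. Zscan4c, of a cluster of near-identical copies, had levels of -2.002, -2.067 and -1.938 at 2 h and -1.818, -1.843 and -2.322 at 4 h, which overlap (0.01, adjusted p = 0.96), and Zscan4d gave -0.06. By 8 h Zscan4c and Zscan4d stood at -1.02 and -1.70.

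Most genes of the polymerase that the drug targets, and of ribosome assembly, went down, each by less than 2-fold. Of 16 genes of the RNA polymerase I machinery 11 fell and 2 rose (median -0.29), and 9 and 0 on the deposited values. Ubtf, the factor that keeps ribosomal DNA open (chr11:102304560-102319742, minus strand), went from 4.39, 4.36 and 4.35 to 3.72, 3.72 and 3.70, a change of -0.66 ± 0.05 (adjusted p = 6.53e-11) with no overlap. Untreated cells stood at 4.39, as at 2 h. Twistnb, a subunit of the polymerase, fell by 0.57, and Rrn3, the initiation factor TIF-IA, gave -0.07 (adjusted p = 0.08). Of 21 genes of RNA polymerase III 15 fell and 3 rose (median -0.19), and 9 fell and 1 rose on the deposited values. Gtf3c1, the largest part of TFIIIC, rose by 0.71 and the alternative subunits Polr3g and Polr3gl fell by 0.52 and 0.37.

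Most assembly factors of both ribosomal subunits fell. Of 36 genes of the small subunit processome 31 fell and 2 rose (median -0.35). Of 29 genes of large subunit assembly 27 fell and 0 rose (median -0.38). Of 18 nucleolar and snoRNP proteins 15 fell and 0 rose (median -0.32). With quantile normalization these medians were -0.20, -0.21 and -0.14. Nmd3, the export adaptor of the large subunit, went from 2.91, 2.84 and 2.97 to 2.00, 2.06 and 2.05, a change of -0.87 ± 0.04. Wdr43 and Mphosph10 of the processome fell by 0.58 and 0.54, and Utp20 and Pwp2 rose by 0.29 and 0.27. Npm1, which encodes nucleophosmin, fell by 0.24, and Fbl, which encodes fibrillarin, gave 0.00 (adjusted p = 0.99). Genes of the ribosomal proteins themselves had smaller medians. Of 78 cytosolic ones 29 fell and 0 rose after centring, a share of falls below the 40.2% of all genes, and 4 fell on the deposited values. Their median of -0.13 turned to 0.04 with quantile normalization. Of 74 mitochondrial ones 56 fell and 1 rose (median -0.21), against 29 and 1 on the deposited values. Of 13 noncoding hosts of snoRNAs, the RNAs that guide modification of ribosomal RNA, 11 fell and the median was -0.45. Gas5, the best known of these hosts, went from 2.57, 2.60 and 2.63 to 2.03, 2.13 and 2.12, a change of -0.51 ± 0.05. No mitochondrially encoded gene was among the genes analysed here.

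**Figure D4:**
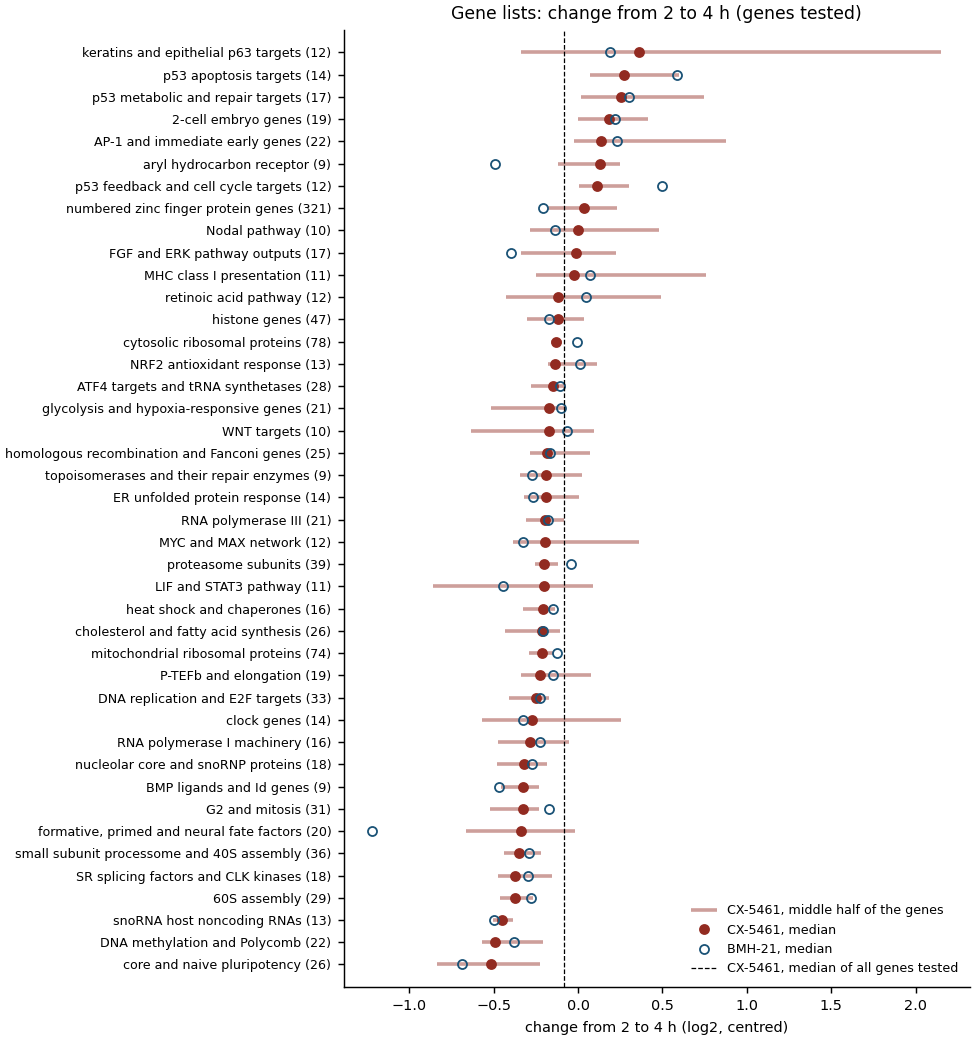
Median change from 2 h to 4 h (log2, horizontal axis) of each gene list (vertical axis), with the interquartile range of the CX-5461 change as a line and the median BMH-21 change as a separate mark. The lists of pluripotency (-0.52), DNA methylation and Polycomb (-0.49) and snoRNA hosts (-0.45) lie lowest, and keratins (0.36) and p53 apoptosis targets (0.27) lie to the right of the median of all genes at -0.08.

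Cell cycle genes fell at both ends of the cycle. Of 31 genes of G2 and mitosis 27 fell and 2 rose (median -0.33), and of 33 replication and E2F targets 27 fell and 0 rose (median -0.25). On the deposited values 22 and 19 fell. With quantile normalization the list medians were -0.18 and -0.11. Of all genes with a mean deposited log2 value from 6 to 8, 63.2% fell. Plk1, the kinase that drives entry into mitosis (chr7:122159439-122169873, plus strand), went from 2.90, 2.86 and 2.84 to 2.00, 2.05 and 1.98, a change of -0.85 ± 0.03 (adjusted p = 9.32e-16) with no overlap. Cdk1 and Ccnb1, the kinase and cyclin of mitosis, fell by 0.58 and 0.53. Ccne1, the cyclin of the start of S phase, went from 4.25, 4.22 and 4.33 to 3.63, 3.59 and 3.63, a change of -0.65 ± 0.04, and the licensing factor Cdt1 fell by 0.53. E2f1 gave 0.11 and did not pass. Of 25 genes of homologous recombination and the Fanconi pathway 13 fell and 4 rose (median -0.19). Of the topoisomerases, Top2a, the form of dividing cells, fell by 0.38, while Top2b and Top1 gave 0.02 and -0.03 (adjusted p = 0.75 and 0.48) and Top1mt rose by 0.60. Of 47 histone genes 19 fell and 0 rose, a share of falls close to the 40.2% of all genes. Reads of replication-dependent histones lack long poly(A) tails and belong to near-identical copies, so those counts are uncertain.

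Most members of the lists of DNA methylation and Polycomb and of SR splicing factors fell. Of 22 genes of DNA methylation and Polycomb 17 fell and 1 rose (median -0.49). Jarid2, which guides the Polycomb complex PRC2 (chr13:44729474-44921643, plus strand), went from 5.03, 5.07 and 5.00 to 4.05, 4.12 and 4.10, a change of -0.94 ± 0.05 with no overlap. The PRC2 genes Phf19 and Ezh2 fell by 0.92 and 0.58 and the methyltransferase gene Dnmt3b by 0.54, while Dnmt1 gave 0.02 (adjusted p = 0.70). The riser was Tet3, a dioxygenase that oxidises methylcytosine, from -1.01, -0.71 and -0.76 to 0.55, 0.54 and 0.56, a rise of 1.38 ± 0.10. Of 18 SR splicing factors and their kinases 14 fell and 3 rose (median -0.38). The fallers included Srsf3 (-0.69) and Srsf7 (-0.54), and the risers were the kinase genes Clk1 (0.38), Clk3 (0.26) and Clk4 (0.26), the last of which did not pass on the deposited values (adjusted p = 0.055). Of 19 elongation genes 12 fell and 4 rose (median -0.23), among them the scaffolds of the super elongation complex Aff1 (-0.88) and Aff4 (-0.82) and the P-TEFb inhibitor Hexim1 (-0.38). The kinase gene Cdk9 gave 0.02 (adjusted p = 0.78).

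Zinc finger genes named by number made up the longest list, with 91 of 321 higher and 92 lower, beside 26.7% and 40.2% of all genes. The list median of 0.04 turned to -0.04 with quantile normalization. Zfp648 had 5, 9 and 2 reads at 2 h and 81, 85 and 87 at 4 h. Zfp296, a cofactor of the pluripotent state, fell by 1.54, from 2.31, 2.24 and 2.16 to 0.76, 0.65 and 0.68, and Zfp827 by 1.24.

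After centring, most members of several stress and housekeeping lists fell. Over all genes 40.2% fell, and 63.2% of those with a mean deposited log2 value from 6 to 8. With quantile normalization the list medians were -0.03 for the proteasome and -0.01 for ATF4 targets and tRNA synthetases. Those for heat shock and the unfolded protein response were -0.07 and -0.03. Of 39 proteasome subunits 29 fell and 1 rose (median -0.20), and 14 fell on the deposited values. Of 28 ATF4 targets and tRNA synthetases 18 fell and 4 rose (median -0.15), and 10 and 2 on the deposited values. Atf4 itself fell by 0.37. Of 16 heat shock genes 11 fell and 3 rose (median -0.21). The co-chaperone gene Bag3 fell by 0.81 and Hspa8 by 0.32, while the inducible copies Hspa1a and Hspa1b, whose near-identical sequences share reads, rose by 0.49 and 0.36. Of 14 genes of the unfolded protein response 8 fell and 2 rose (median -0.19), with Manf down by 0.45 and Herpud1 up by 0.50. The antioxidant list of NRF2 gave 5 rises and 7 falls among 13 genes after centring, and 0 and 2 on the deposited values. Its median of -0.14 turned to 0.03 with quantile normalization, and Gclm, a subunit of glutathione synthesis, fell by 0.43.

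The same interval under BMH-21 gives a second view of the step. The CX-5461 change and the BMH-21 change come from separate libraries, and over 14666 genes they had a Pearson correlation of 0.92 and a Spearman correlation of 0.86. The sign was the same for 84.4% of genes. These are descriptions across genes within 1 cell line. BMH-21 changed 10008 genes (68.2%) in its own step. limma found that the steps of the drugs differed for 2460 genes (16.8%), with the CX-5461 step above that of BMH-21 for 1132 (7.72%) and below it for 1328 (9.05%). On the deposited values the number was 488, with 326 above and 162 below, so both the count and the balance of directions depend on the scaling.

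Several fate genes fell less in CX-5461 than in BMH-21. Foxd3, a forkhead factor of pluripotent cells, had levels of 0.08, 0.13 and 0.05 at 2 h of CX-5461 and of -0.25, -0.15 and -0.42 at 4 h, a change of -0.36, against -2.86 under BMH-21. The difference of 2.50 had an adjusted p of 6.33e-12 in limma. Zic5 (-0.53 against -2.74), Zic2 (-0.65 against -2.58) and 2610035F20Rik (-0.56 against -2.52) lie beside each other, some on opposite strands, and whether counting used the strand is not given in the sources used here. Mir124a-1hg gave -0.80 against -2.85, and Bmp4 -1.82 against -2.85. Of 20 formative and neural factors, 12 had a CX-5461 step above that of BMH-21 and 0 below, beside 7.72% and 9.05% of all genes. Their median change was -0.34 in CX-5461 and -1.22 in BMH-21. Otx2 gave 0.02 against -1.41. Several other genes rose in CX-5461, with values near 0 or below it in BMH-21. Lefty1 gave 0.94 against -0.01 (difference 0.96, adjusted p = 7.53e-06), Pim1 0.58 against -0.95, Insm1 1.39 against 0.09, Dusp6 0.63 against -0.11 and Klf6 1.11 against -0.39. Numbered zinc finger genes went the same way, with 110 of 321 above and 13 below, and 30 and 3 on the deposited values.

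Targets of p53 more often had a lower step in CX-5461 than in BMH-21 over these hours. Of 14 apoptosis targets 9 had a CX-5461 step below that of BMH-21 and 0 above, beside 9.05% and 7.72% of all genes. The counts were 8 and 1 of 12 feedback targets and 8 and 1 of 17 metabolic targets. On the deposited values the counts below were 2, 4 and 2. Plk2 gave -0.40 in CX-5461 and 0.42 in BMH-21 (difference -0.83, adjusted p = 9.41e-10), Mdm2 0.20 and 0.86, Cdkn1a -0.47 and 0.10, and Fas 2.15 and 3.30. The largest differences of this sign were those of Dusp2 (0.71 against 2.12), Rgs14 (3.24 against 4.60), Rasd1 (0.53 against 1.89) and Ptprd (1.52 against 2.84). A lower step can come from a higher level at 2 h or a lower level at 4 h. Dusp2 stood at -1.86 in CX-5461 and -1.83 in BMH-21 at 2 h, and at -1.15 and 0.29 at 4 h. Rgs14 stood at -1.61 and -2.74 at 2 h, and at 1.62 and 1.86 at 4 h. Dusp2 is a phosphatase of ERK, Rgs14 a regulator of G protein signalling and Rasd1 a RAS-like GTPase. Of the 31 genes of G2 and mitosis 15 lay below and 0 above after centring, among them Ccnb1 (-0.53 against -0.20) and Cdc20 (-0.30 against 0.06), while 0 passed on the deposited values. Of 29 genes of large subunit assembly 6 differed between the drugs, beside 16.8% of all genes. Nmd3 gave -0.87 and -0.84 (difference -0.03, adjusted p = 0.76). Doses were equal at 1 µM, and potencies of the drugs were not measured here.

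**Figure D5:**
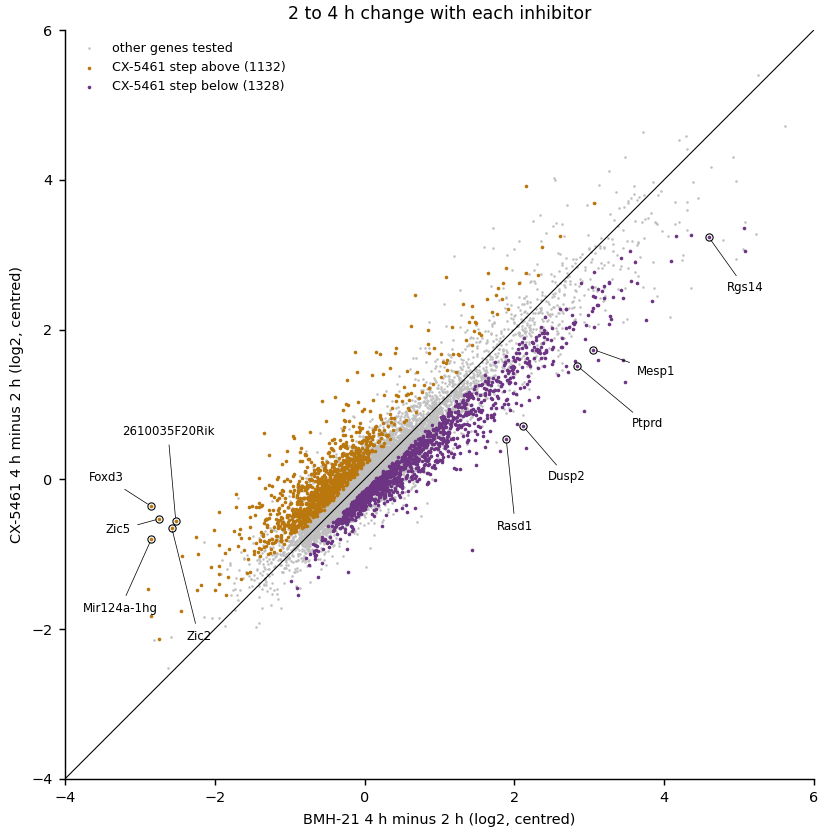
Change from 2 h to 4 h under CX-5461 (log2, vertical axis) against the change under BMH-21 (log2, horizontal axis), 1 point per tested gene, with genes whose steps differ in limma coloured by sign and the line of equal change drawn. Foxd3, Zic5 and Zic2 lie above the line at BMH-21 changes from -2.86 to -2.58, and Rgs14 and Dusp2 lie below it.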

How the data were processed

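Poly(A) RNA of 21 libraries was sequenced from kits that keep the strand, per the labels' protocols. Trim Galore 0.5.0, TopHat2 2.1.1, R 4.0.5, DESeq2 1.30.1, edgeR 3.32.1 and limma 3.46.0 and the build mm10 are listed per the submitters' processing notes. The counting program, its strand setting, the annotation and the filters are not given in the sources used here. The deposited values are log2 values for 20900 gene symbols, normalized with voom by the name the authors gave the table. With an offset of 0.5 reads, 100.0% of values came out as whole reads within 0.001. They carry a scaling factor per library whose origin is not given, so each library was centred on the median of its tested genes, and the deposited values were fitted beside it.

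limma 3.58.1 (R 4.3.3) was fitted with 1 mean for each of 7 groups over the 21 libraries, 14 residual degrees of freedom, eBayes with a trend, two-sided tests and Benjamini-Hochberg adjustment over 14666 genes at 0.05. The filter set aside 6234 genes. A second contrast tested the CX-5461 step minus the BMH-21 step. Log2 changes include the offset and understate those of low genes. In simulated data 200 of 14666 genes were changed by a log2 of 1 or 2, equally up and down. The fit recovered 189 of these, with 6 false calls among 195. Far more genes moved in the real data, mostly by less, so the simulation does not test the centring or the small calls. Named genes were the 12 largest rises and 12 largest falls without overlap, the 5 largest differences of each sign between the drugs, and up to 4 called members of each list, some of which are not reported here. Other list members given with values were chosen after their values were seen. The comparison, its members and the lists were chosen with earlier results of these data known.

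Replicate numbers were shared between groups, but deviations of same-numbered libraries correlated at -0.02, 0.02 and -0.05, so the numbers were not taken to pair them. No pair of the 6 libraries at one time was alike to within counting noise (chi-square of 3.92 to 7.84 per degree of freedom). Gene positions come from GENCODE M21, matched to 96.4% of tested genes, and promoters from RefSeq, matched to 75.0%, too few for shares of promoters by group. Alternatives changed the scaling, filter, offset, variance model, libraries in the fit, replicate block, and left out single replicates. Plots were made in matplotlib 3.10.9.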

Additional observations from a re-analysis of the deposited data

Results flagged for a closer look

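The step from 2 to 4 h differed between CX-5461 and BMH-21, by limma's test of the difference itself with Benjamini-Hochberg adjustment, for 59 of 174 named genes. Over all genes the steps differed for 16.8%. Foxd3, Zic5, Mir124a-1hg, 2610035F20Rik and Zic2 were named for their large differences in this same test. So were Dusp2, Rgs14, Rasd1, Ptprd and Mesp1. That these genes passed was therefore fixed by their choice, and the count among named genes cannot be set against the share of all genes. The values below are the CX-5461 change minus the BMH-21 change on the log2 scale. They do not say at which time the drugs stood apart. Tap1, for example, stood at 0.26 in CX-5461 and -0.45 in BMH-21 at 2 h, and at 1.95 and 1.90 at 4 h. The largest adjusted p among the 59 genes was 0.046, and 30 of the 59 also passed on the deposited values.

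The CX-5461 step lay above that of BMH-21 for 30 genes. By at least 2-fold (a difference of at least 1) these were Foxd3 (2.50), Zic5 (2.21), Mir124a-1hg (2.05), 2610035F20Rik (1.96), Zic2 (1.93), Pim1 (1.53), Cyp1b1 (1.42), Insm1 (1.29), Bmp4 (1.03) and Klf2 (1.01). Smaller differences of this sign were those of Lefty1 (0.96), Ahrr (0.81), Mnt (0.77), Dusp6 (0.74), Rasgrp1 (0.70), Pou3f1 (0.70), Nlrc5 (0.63), Msc (0.62), E2f2 (0.57), Prdm14 (0.52), Herpud1 (0.44), Manf (0.42), Klf5 (0.41), Nr1d2 (0.28), Ubtf (0.26), Tigar (0.26), Bag3 (0.24), Clk1 (0.24), Gnl3 (0.21) and Rarg (0.15).

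The CX-5461 step lay below that of BMH-21 for 29 genes. By at least 2-fold these were Dusp2 (-1.41), Rgs14 (-1.36), Rasd1 (-1.36), Ptprd (-1.33), Mesp1 (-1.32), Fas (-1.15) and Krt5 (-1.09). Smaller differences of this sign were those of Plk2 (-0.83), Cebpb (-0.80), Tap1 (-0.66), Nr4a1 (-0.62), Hspa1a (-0.60), Cdkn1a (-0.57), Hspa1b (-0.52), Atf3 (-0.48), Smad3 (-0.46), Bmp7 (-0.40), H1f0 (-0.40), Ndrg1 (-0.38), Mrps6 (-0.34), Gclc (-0.33), Tef (-0.30), Ptprv (-0.26), Apaf1 (-0.25), Sesn2 (-0.23), Pwp2 (-0.22), Srebf1 (-0.21), Edem1 (-0.19) and Psrc1 (-0.17). Neighbouring or near-identical genes among both sets (Zic2, Zic5 and 2610035F20Rik; Hspa1a and Hspa1b) may share reads.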

How the results depend on the processing

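The count of genes called, 9819, kept within 1.5 times of its value under every alternative run, and each alternative chosen could be fitted. The number changed by at least 2-fold was 1449. It was 2215 with all genes of the table, 906 with only genes above a log2 value of 2, and 958 with values below 0 set to 0. The genes higher by at least 2-fold, 1258, became 1890, 792 and 825 in the same order. Those lower by at least 2-fold, 191, became 325 with all genes, 114 with the stricter filter and 464 with quantile normalization. The difference between the drugs, 2460 genes, became 488 on the deposited values, with 326 above and 162 below in place of 1132 and 1328. Its share above was 46.0%, 66.8% on the deposited values, 57.2% with median-ratio factors and 54.1% with quantile normalization. Without centring the median of all genes moved by -0.01. The cause of these shifts was not tested, except that a filter tests fewer or more genes.

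Leaving out each replicate in turn gave 9079 to 9413 called genes, 3687 to 3758 higher and 5383 to 5655 lower. At 2-fold or more it gave 1438 to 1487, with 1231 to 1276 higher and 194 to 211 lower. The difference between the drugs ranged from 1956 to 2326, with 913 to 1077 above and 1040 to 1289 below. With the replicate number as a block, limma called 9680 genes and 2284 differences between the drugs. Same-numbered libraries shared only a number.

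For 168 named genes, 3016 values under the alternatives gave 2967 with the same call and direction, 48 that kept the direction and lost the call, and 1 of the opposite sign, Ahrr at 0.012 with values below 0 set to 0 against -0.46. Depth limits the low genes, since a log2 value of 0 stood for 41.6 to 65.4 reads in the 6 libraries.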

Other observations

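Lipid and sugar metabolism also moved between 2 and 4 h of CX-5461. Of 26 genes of cholesterol and fatty acid synthesis 18 fell and 2 rose in limma at an adjusted p under 0.05 (median -0.21). Over all genes 40.2% fell and 26.7% rose. On the deposited values 12 of the 26 fell and 0 rose. Scd1, a fatty acid desaturase gene, changed by -0.82 ± 0.06 (SE), with no overlap between the 2 h and 4 h values. Of 21 glycolysis and hypoxia-responsive genes 14 fell and 1 rose (median -0.17), and 9 and 1 on the deposited values. Slc2a3, the glucose transporter GLUT3, went from 4.78, 4.78 and 4.81 to 3.92, 3.94 and 3.93, a change of -0.86 ± 0.05. The stress-induced gene Ndrg1 fell by 1.36, and Egln3, an oxygen sensor, rose by 0.39.

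Clock genes changed in both directions, with 5 of 14 higher and 7 lower (median -0.27), beside 26.7% and 40.2% of all genes. Tef, a factor of the clock output, rose by 0.86, from 1.11, 1.07 and 1.06 to 1.98, 1.92 and 1.92, and the repressor gene Bhlhe40 rose by 0.68. Hlf, a relative of Tef, fell by 1.26 and Nr1d2, also called REV-ERB beta, by 0.72. Medium was changed when the drug was added, and the part of that change in these values was not tested. Of 48 tested genes annotated as snoRNAs, 45.8% fell and 0 rose, beside 40.2% and 26.7% of all genes. Their median change was -0.45, and -0.63 under BMH-21. The libraries were of poly(A) RNA, and the median of these genes' mean deposited log2 values was 0.45. What their reads stand for is therefore uncertain. Of 9 genes of the aryl hydrocarbon receptor pathway 4 rose and 2 fell (median 0.13, and -0.02 with quantile normalization). The receptor's partner Arnt fell by 0.44. The sentinel target Cyp1a1 changed by -0.08 (adjusted p = 0.65) in CX-5461 and by -1.23 in BMH-21. In untreated cells Cyp1b1 stood at -4.78 and Ahrr at -5.04. At 2 and 4 h of CX-5461 Cyp1b1 stood at -3.93 and -3.55, and Ahrr at -5.03 and -5.49. At these times of BMH-21 Cyp1b1 stood at 0.99 and -0.04, and Ahrr at -1.50 and -2.77.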
